A study of Mus musculus with 10 samples.

Results

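The 5 genes described here encode proteins of the secretory-stage enamel matrix and the protease that processes them: Amelx, Ambn, Enam, Mmp20 and Tuft1. They were taken by gene symbol from the deposited tables, and all 5 were listed in both layers, among 16292 ameloblast and 16638 stratum intermedium genes, of which 15625 were common to both. The libraries came from laser-captured cells of mouse hemi-mandibles. The tested mice carried a claudin-10 knockout (KO) and were set against wild-type (WT) mice; claudin-10 is a tight junction protein that forms paracellular ion channels. Each layer had 3 KO and 2 WT libraries. The ameloblasts are the cells that secrete enamel, and the stratum intermedium is the cell layer behind them. Neither the age and strain of the mice nor the knockout allele or the stage of the captured cells is stated in the labels. Libraries are named here by the prefix of their library name (KO1, KO3, KO9, WT10 and WT5), which recurred in both layers and was taken to mark the same mouse, although the labels do not state it. Where prefixes do not mark separate mice, the p-values reflect library spread alone, which may be technical.

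Enamel is laid down by secretory ameloblasts as a protein matrix that guides the growth of apatite crystals and is removed as they harden. Amelogenin, encoded by Amelx, is the main protein of that matrix; ameloblastin (Ambn) links ameloblasts to the matrix, and enamelin (Enam) is a large phosphorylated glycoprotein at the mineralization front. Enamelysin (Mmp20) is the secretory-stage metalloproteinase that cleaves all of them, and kallikrein 4 (Klk4) takes over in the maturation stage. Tuftelin (Tuft1) is an acidic protein first found in enamel that many other tissues also make. In humans, inherited defects of AMELX, AMBN, ENAM or MMP20 cause amelogenesis imperfecta.

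In GRCm38, Amelx (ENSMUSG00000031354) lies on chromosome X from 169176114 to 169187200 on the minus strand. Ambn (ENSMUSG00000029288) lies on chromosome 5 from 88455991 to 88468531, and Enam (ENSMUSG00000029286) follows it from 88487975 to 88506049, both on the plus strand. Mmp20 (ENSMUSG00000018620) lies on chromosome 9 from 7628231 to 7674979 on the plus strand, and Tuft1 (ENSMUSG00000005968) on chromosome 3 from 94612757 to 94658872 on the minus strand. Their merged exons span 999, 1919, 5490, 3287 and 3117 bases in the order Amelx, Ambn, Enam, Mmp20 and Tuft1, and levels of different genes were compared after division by these lengths, except where a ratio of counts to Amelx is followed across libraries. Amelx lies inside Arhgap6, a gene on the other strand, with 0 bases of exon shared; no other listed gene overlapped a member.

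Because Amelx, Ambn, Enam and Mmp20 kept nearly the same order of libraries within a layer, the 250 bases before the transcription start of each are shown, 5′ to 3′ on the strand of the gene, from RefSeq on GRCm38.p6. The windows are chrX:169187210-169187459 on the minus strand for Amelx, and on the plus strand chr5:88455741-88455990 for Ambn, chr5:88487725-88487974 for Enam and chr9:7627981-7628230 for Mmp20. Capitals mark the run TGATTGG, the shorter run ATTGG within it or alone in either direction, and the TATA-box letters TATAAA, all picked after these windows had been read.
Amelx: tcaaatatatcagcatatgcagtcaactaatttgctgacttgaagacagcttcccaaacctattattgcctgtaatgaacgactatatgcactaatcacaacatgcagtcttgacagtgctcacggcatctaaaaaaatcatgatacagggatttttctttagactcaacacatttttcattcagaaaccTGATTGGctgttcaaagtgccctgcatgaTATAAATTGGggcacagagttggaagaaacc
Ambn: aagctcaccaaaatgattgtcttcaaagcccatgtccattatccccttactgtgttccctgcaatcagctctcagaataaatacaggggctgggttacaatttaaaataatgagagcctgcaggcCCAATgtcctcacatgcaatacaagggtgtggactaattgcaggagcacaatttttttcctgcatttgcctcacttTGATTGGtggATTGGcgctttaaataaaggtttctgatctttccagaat
Enam: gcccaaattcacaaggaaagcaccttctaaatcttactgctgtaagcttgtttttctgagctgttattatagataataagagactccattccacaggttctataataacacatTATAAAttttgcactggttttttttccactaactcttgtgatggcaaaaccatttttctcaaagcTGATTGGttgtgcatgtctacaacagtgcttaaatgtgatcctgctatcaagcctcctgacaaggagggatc
Mmp20: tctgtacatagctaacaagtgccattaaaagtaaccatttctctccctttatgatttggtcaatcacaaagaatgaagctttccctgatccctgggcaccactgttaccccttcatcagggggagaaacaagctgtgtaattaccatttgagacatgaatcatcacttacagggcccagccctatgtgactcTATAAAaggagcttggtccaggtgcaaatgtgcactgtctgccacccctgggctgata
The letters TGATTGG, searched on both strands, began at position -60 from the start of Amelx, -49 from that of Ambn and -72 from that of Enam, always on the strand of the gene, and were not found in the Mmp20 window. Windows of this length held TGATTGG in 7.23% of 32851 mouse promoters. The shorter run was held by 33.8% of promoters and by the same 3 members. TATAAA began at -31 in Amelx, where it overlaps another copy of the shorter run, at -137 in Enam and at -58 in Mmp20, and was held by 12.4% of promoters. The letters TAATT, a core of homeodomain sites that is not capitalized here, was held by 3 of the 4 windows, those of Amelx, Ambn and Mmp20, and by 25% of promoters. These matches describe the letters only.

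The values are normalized counts, and they summed to between 21006977 and 26856177 per library; the read depth behind them is unknown. Cldn10 itself was lower in every KO than in every WT library of both layers, with adjusted p in limma of 0.989 in ameloblasts and 1.00 in the stratum intermedium. It had 280.1, 408 and 149 normalized counts in KO1, KO3 and KO9 ameloblasts, against 600.1 and 752 in WT10 and WT5, and 1003, 387 and 465 in KO1, KO3 and KO9 stratum intermedium, against 7257 and 2365 in WT10 and WT5. Xist marked KO1 and KO3 as female, and Y-linked transcripts marked KO9, WT10 and WT5 as male; Amelx is the X-linked member. Markers of other cells were present, and those of odontoblasts and pulp summed to 2.59% to 3.73% of KO and 3.25% to 4.41% of WT ameloblast libraries, and 2.64% to 2.97% of KO and 1.76% to 4.71% of WT stratum intermedium libraries. WT5 stood apart, with the highest share of odontoblast and pulp markers in both layers and of red blood cell markers in both layers (1.28% of its ameloblast and 0.911% of its stratum intermedium library). The summed share of the 10 stratum intermedium markers overlapped between the layers, at 0.336% to 0.864% of the ameloblast libraries and 0.466% to 1.04% of the stratum intermedium libraries, while their median log2 ratio of ameloblast to stratum intermedium was -0.72 against -0.15 over all genes. Cldn10 (geometric mean ratio 0.302, over KO and WT prefixes) and Alpl (0.531) were among the lower ones. Krt14 (2.43), Jag1 (1.40), Gja1 (1.16) and Cdh3 (1.05) ran the other way. Of the 10, only 1, Alpl, was lower in ameloblasts in all 5 prefixes, as were 17.8% of genes. Results of the members that move with WT5 are given with and without it, and those of the lists of other genes only with all libraries.

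Amelx was the most abundant transcript per kilobase in all 5 ameloblast libraries. It made up 6.35%, 2.99% and 1.75% of the normalized counts in KO1, KO3 and KO9 ameloblasts, against 3.75% and 2.04% in WT10 and WT5. In the stratum intermedium it made up 0.535%, 0.331% and 0.0781% in KO1, KO3 and KO9, against 0.356% and 0.691% in WT10 and WT5, and ranked between 4th and 48th per kilobase. Per kilobase, the order Amelx, Ambn, Enam, Mmp20, Tuft1 held in 10 of 10 libraries. The step from Amelx to Ambn was 10.9-fold to 15.6-fold in ameloblasts and 5.03-fold to 11.6-fold in the stratum intermedium. The step from Ambn to Enam was 2.12-fold to 5.82-fold in ameloblasts and 2.93-fold to 11.4-fold in the stratum intermedium. Enam lay 1.18-fold to 6.37-fold above Mmp20 in ameloblasts and 1.37-fold to 3.15-fold in the stratum intermedium. Over libraries, the ranges of Ambn and Enam overlapped in both layers, as did those of Enam and Mmp20, although the order within a library did not change. Tuft1 was far below the others, ranking between 6369th and 10826th per kilobase in ameloblasts and between 5401st and 9445th in the stratum intermedium.

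Ameloblast values of KO and WT overlapped for Amelx, Ambn, Enam and Mmp20; over all genes, 9.09% had all KO libraries above all WT libraries and 9.26% had them below. Amelx had 1704036, 691203 and 387348 normalized counts in KO1, KO3 and KO9, against 905195 and 460452 in WT10 and WT5. Ambn had 300367, 91477 and 54041 in KO1, KO3 and KO9, against 111434 and 63797 in WT10 and WT5. Enam had 405084, 71853 and 26559 in KO1, KO3 and KO9, against 86123 and 62932 in WT10 and WT5. For these 3 genes KO1 was highest, KO9 was lowest, and both WT libraries lay between them. Mmp20 had 38052, 21874 and 13461 in KO1, KO3 and KO9, against 23575 and 10753 in WT10 and WT5, so that here WT5 and not KO9 was lowest. Tuft1 differed from the rest: it had 369.7, 222 and 156 normalized counts in KO1, KO3 and KO9, against 93.9 and 117 in WT10 and WT5, and every KO library lay above both WT libraries.

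KO9 was the lowest stratum intermedium library for Amelx, Ambn, Enam and Mmp20. Amelx had 117586, 73983 and 16813 normalized counts in KO1, KO3 and KO9, against 74814 and 166208 in WT10 and WT5. Ambn had 29869, 16665 and 6425 in KO1, KO3 and KO9, against 13904 and 27521 in WT10 and WT5. Enam had 17189.6, 7868 and 1612 in KO1, KO3 and KO9, against 8139 and 26828 in WT10 and WT5. WT5 was highest for Amelx and Enam, and KO1 for Ambn. Mmp20 had 4034, 3233 and 702 in KO1, KO3 and KO9, against 2815 and 5098 in WT10 and WT5. Tuft1 had 532, 187 and 275 in KO1, KO3 and KO9, against 188 and 231 in WT10 and WT5, with KO3 and WT10 at nearly the same value. KO and WT overlapped for all 5 genes in this layer, where 7.76% of all genes had every KO library above every WT library and 7.44% had them below.

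**Figure D1:**
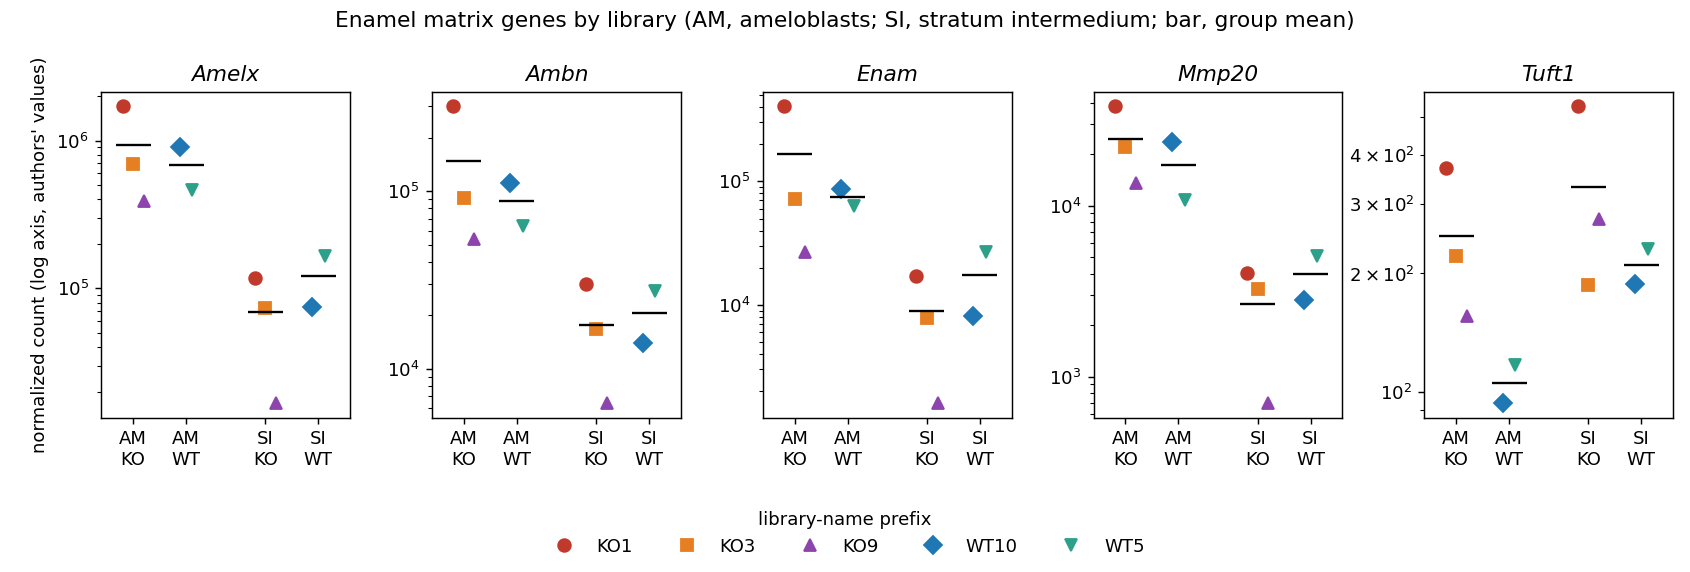
Normalized counts (log axis) of each gene by layer and genotype, with 1 point per library marked by its prefix and a bar at the group mean. Enam spanned from 26559 to 405084 in KO ameloblasts, a range that holds both WT values, whereas the 3 KO ameloblast values of Tuft1 lay above both WT values.

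The members varied more between libraries than the median gene. The SD over the 5 ameloblast libraries, on the log2 scale, was 0.85 for Amelx, 0.97 for Ambn, 1.43 for Enam, 0.72 for Mmp20 and 0.78 for Tuft1, against a median of 0.39 over 11599 genes with a mean of at least 100. The stratum intermedium SD was 1.26 for Amelx, 0.89 for Ambn, 1.54 for Enam, 1.12 for Mmp20 and 0.62 for Tuft1, against a median of 0.35 over 12099 genes. Enam had the widest span of the members, with 15.3-fold between its highest and lowest ameloblast library and 16.6-fold in the stratum intermedium, where the median gene spanned 1.94-fold and 1.82-fold in the same layers. In these bulk captures, fewer cells of a type and less RNA per cell cannot be told apart.

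Amelx, Ambn, Enam and Mmp20 were higher in ameloblasts than in the stratum intermedium in all 5 prefixes, as were 5.93% of 15567 genes. No test was made between the layers, because their tables had been normalized separately. The Amelx ratio of ameloblast to stratum intermedium was 14.5, 9.34 and 23.0 in KO1, KO3 and KO9, against 12.1 and 2.77 in WT10 and WT5. The Enam ratio was 23.6, 9.13 and 16.5 in KO1, KO3 and KO9, against 10.6 and 2.35 in WT10 and WT5. WT5 had the smallest ratio for each of the 4 genes, and KO3 the next smallest. The Mmp20 ratio was 9.43, 6.77 and 19.2 in KO1, KO3 and KO9, against 8.37 and 2.11 in WT10 and WT5. The Ambn ratio was 10.1, 5.49 and 8.41 in KO1, KO3 and KO9, against 8.01 and 2.32 in WT10 and WT5. By their mean log2 ratio, Amelx (3.33) ranked 14th of 15567 genes, Enam (3.28) 15th, Mmp20 (2.88) 34th and Ambn (2.61) 56th, where the median gene stood at -0.15.

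Tuft1 did not share this pattern. Its ratio of ameloblast to stratum intermedium was 0.695, 1.19 and 0.568 in KO1, KO3 and KO9, against 0.499 and 0.506 in WT10 and WT5, so only KO3 had more Tuft1 in ameloblasts. Its mean log2 ratio of -0.61 ranked 12384th. Arhgap6, the host gene of Amelx, was below the stratum intermedium in ameloblasts of all 5 prefixes (ratios of 0.260 to 0.544), as were 17.8% of genes, and had only 27.8 to 100.4 normalized counts in the ameloblast libraries. The libraries were made with a stranded kit, but whether reads were counted by strand is not stated.

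**Figure D2:**
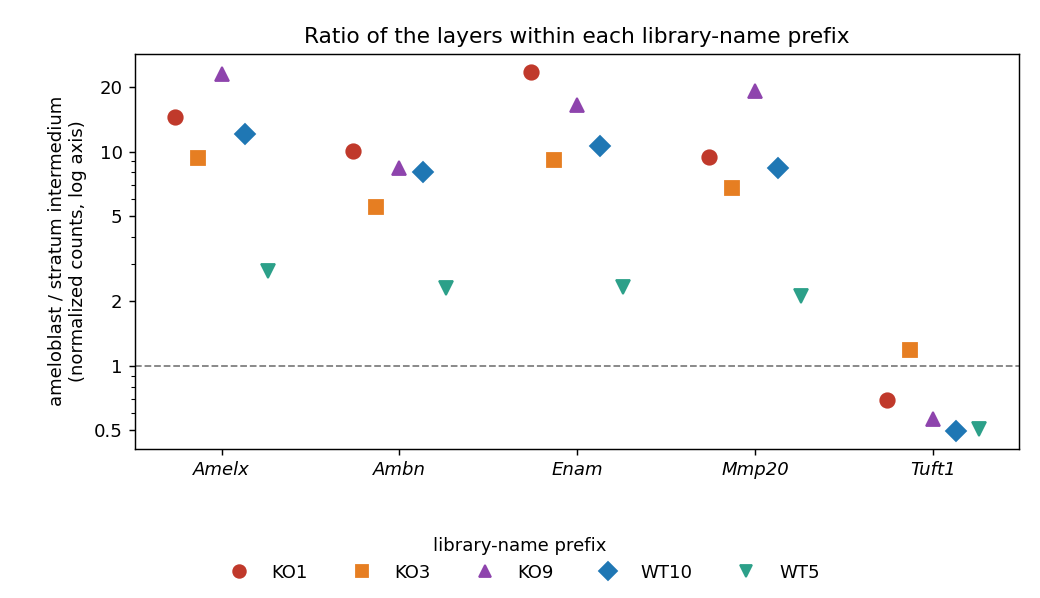
Ratio of the ameloblast to the stratum intermedium normalized count (log axis) for each gene, with 1 point per prefix and a dashed line at equal values. The WT5 points are the lowest for Amelx, Ambn, Enam and Mmp20 (2.11 to 2.77), while Tuft1 lies below 1 in all prefixes but KO3.

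The comparison of KO with WT asked whether enamel matrix transcripts differ without claudin-10, and in ameloblasts none of the 5 genes passed the threshold. All 5 had a higher mean log2 value in KO than in WT, as did 53% of 16212 genes tested, and 0% of genes passed an adjusted p of 0.05. The log2 difference was 0.25 (SE 0.72) for Amelx, 0.44 (SE 0.71) for Ambn, 0.32 (SE 1.02) for Enam and 0.49 (SE 0.51) for Mmp20, with adjusted p from 0.989 to 0.993 in limma with Benjamini-Hochberg adjustment. The median over the members was 0.44, against 0.04 over all genes. Their direction rested on single libraries: without KO1, the differences were -0.32 for Amelx, -0.26 for Ambn and -0.75 for Enam, and without WT5 they were -0.23 for Amelx and -0.075 for Mmp20. Within the library groups named in the labels, KO3 minus WT5 was 0.59 for Amelx and KO9 minus WT10 was -1.22, and the same opposite signs held for Ambn, Enam and Mmp20.

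Tuft1 was the member with the smallest ameloblast p, with a difference of 1.15 on the log2 scale (SE 0.49). Its p in limma was 0.0497 before and 0.989 after Benjamini-Hochberg adjustment, while 3.07% of genes had an unadjusted p under 0.05 and 2.25% had one and were higher in KO. The difference was 0.92 for KO3 minus WT5 and 0.73 for KO9 minus WT10, and it lay between 0.82 and 1.44 when any 1 library was left out. These signs were fixed once every KO library lay above both WT libraries, as for 9.09% of genes, so they add no support. With sex as a covariate it was 0.57, and only the males, KO9, WT10 and WT5, hold both genotypes.

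Stratum intermedium means of Amelx, Ambn, Enam and Mmp20 were lower in KO and that of Tuft1 higher, and none passed the threshold. Of 16543 genes tested, 51.9% had a higher mean in KO, and 0% passed an adjusted p of 0.05. The log2 difference was -1.08 (SE 0.77) for Amelx, -0.41 (SE 0.61) for Ambn, -1.30 (SE 0.94) for Enam, -0.86 (SE 0.71) for Mmp20 and 0.53 (SE 0.50) for Tuft1, each with an adjusted p of 1.00 in limma with Benjamini-Hochberg adjustment. No member had an unadjusted p under 0.05 without a covariate, and 2.06% of genes had one. With library group as a block, in which KO1 is alone in its group and does not enter the difference, the values were -1.66 for Amelx, -0.92 for Ambn, -2.05 for Enam and -1.33 for Mmp20. Their unadjusted limma p was then 0.00129 for Amelx, 0.00598 for Ambn, 3.1e-05 for Enam and 0.00372 for Mmp20, and the smallest adjusted p, that of Enam, was 0.171. In that fit 489 of 16543 genes had an unadjusted p under 0.05. The block leaves few libraries to estimate spread, so these p-values lean on variance shared across genes. Leaving out KO1 with no block gave the same differences. The unadjusted limma p was then 0.0640 for Amelx, 0.130 for Ambn, 0.0511 for Enam and 0.110 for Mmp20. KO3 minus WT5 was -1.17 for Amelx and -1.77 for Enam, and KO9 minus WT10 was -2.15 for Amelx and -2.34 for Enam. The block averages these same differences, so their shared sign adds nothing to it. Without KO9 the differences were -0.26 for Amelx, -0.35 for Enam, -0.069 for Mmp20 and 0.19 for Ambn, and without WT5 they were -0.51 for Amelx, -0.44 for Enam, -0.43 for Mmp20 and 0.084 for Ambn. Without KO1 the Tuft1 difference was 0.12. KO9 is the only male among the KO mice, and with sex as a covariate the values were -2.73 for Amelx, -1.61 for Ambn, -3.20 for Enam and -2.43 for Mmp20, with unadjusted limma p from 0.00108 to 0.0200 and adjusted p of 1.00. With that covariate 341 of 16543 genes had an unadjusted p under 0.05.

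The log2 ratio of ameloblast to stratum intermedium had a higher mean in KO than in WT for all 5 members, as for 50.4% of 15567 genes, and the difference passed the threshold for none, as for 0% of genes. For Tuft1, whose mean log2 ratio was -0.36 in KO and -0.99 in WT, the higher value lies nearer to equal levels. The log2 difference of the layer ratio, KO minus WT, was 1.34 (SE 0.66) for Amelx, 0.85 (SE 0.52) for Ambn, 1.61 (SE 0.65) for Enam, 1.35 (SE 0.63) for Mmp20 and 0.62 (SE 0.53) for Tuft1, with adjusted p from 0.836 to 0.849 in limma with Benjamini-Hochberg adjustment. Enam alone among the members had an unadjusted p under 0.05 (0.0415 in limma), which 5.15% of genes had, and 3.12% of genes had one with a higher KO value. With library group as a block, the unadjusted limma p was 0.0283 for Amelx, 0.128 for Ambn, 0.00982 for Enam, 0.000973 for Mmp20 and 0.305 for Tuft1. The smallest adjusted p of the members was 0.758. In that fit 867 of 15567 genes had an unadjusted p under 0.05. Leaving out KO1 with no block gave the same differences as the block, with unadjusted limma p from 0.112 for Mmp20 to 0.326 for Ambn. For Tuft1 all 3 KO prefixes lay above both WT prefixes, as for 10.9% of genes, and for the other 4 genes WT10 lay among the KO prefixes. These values use the same libraries as the comparisons within a layer. Without WT5 they were 0.27 for Amelx, -0.050 for Ambn, 0.53 for Enam and 0.35 for Mmp20, and without WT10 they were 2.40 for Amelx, 1.74 for Ambn, 2.70 for Enam and 2.34 for Mmp20.

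**Figure D3:**
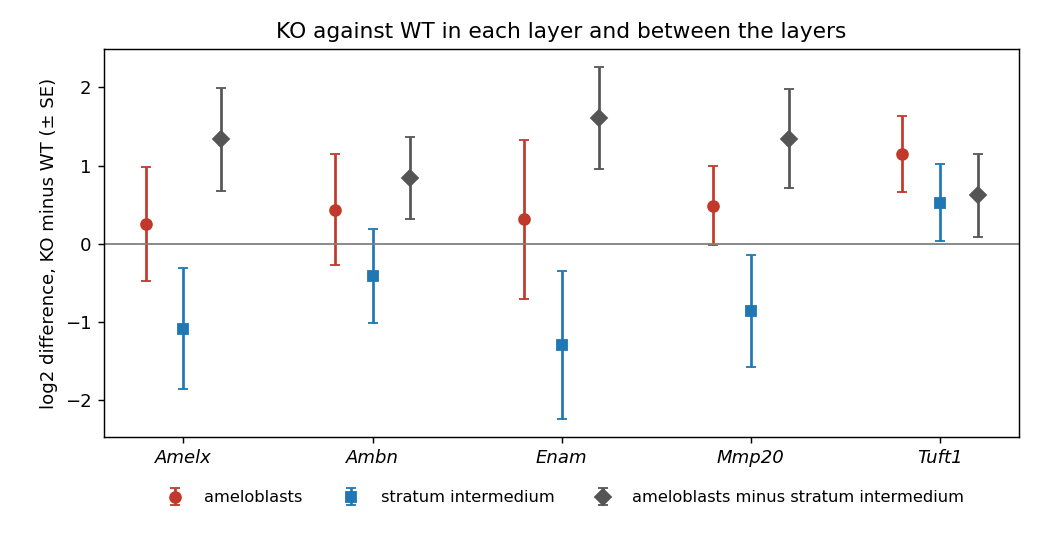
Log2 difference, KO minus WT, of each gene in ameloblasts, in the stratum intermedium and for the layer ratio, with bars for ± SE from limma over 3 KO and 2 WT libraries or prefixes. The ameloblast values run from 0.25 to 1.15 and the stratum intermedium values from -1.30 to 0.53.

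Together the 5 genes made up 5.03 ± 3.63% of the normalized counts in KO ameloblasts (SD, n = 3) and 3.66 ± 1.43% in WT ameloblasts (SD, n = 2), a difference of 1.37 percentage points with a two-sided exact permutation p of 0.9. By library the share was 9.11%, 3.79% and 2.18% in KO1, KO3 and KO9, against 4.67% and 2.65% in WT10 and WT5. Stratum intermedium libraries held 0.449 ± 0.325% in KO (SD, n = 3) and 0.707 ± 0.328% in WT (SD, n = 2), with an exact permutation p of 0.4. The smallest p that 3 against 2 libraries allow is 0.1. Without KO1 the ameloblast difference was -0.674 percentage points, and without WT5 it was 0.362. The stratum intermedium difference was -0.259 percentage points with all libraries, -0.0266 without WT5 and -0.0941 without KO9. The other ameloblast markers, 7 genes such as the transcription factor gene Sp6 and the acid phosphatase gene Acp4, summed to 0.124%, 0.0758% and 0.0800% in KO1, KO3 and KO9 ameloblasts, against 0.134% and 0.0404% in WT10 and WT5. Of the 7 genes, 3 (Acp4, Sp6 and Dlx3) were higher in ameloblasts in all 5 prefixes, as were 5.93% of genes. By geometric mean ratio to the stratum intermedium, Odam (0.281), Wdr72 (0.835) and Klk4 (0.931) lay below 1. Over prefixes the ratio ran from 0.0234 to 20.9 for Wdr72 and from 0.289 to 3.11 for Klk4, on low counts, so neither had a clear direction. Klk4 and Wdr72, both maturation-stage genes of that list, were listed at 0 in KO9 ameloblasts, and Wdr72 also in KO1 stratum intermedium. Those markers summed to 0.0445%, 0.0234% and 0.0182% of the stratum intermedium libraries KO1, KO3 and KO9, against 0.0454% and 0.0224% of WT10 and WT5. The part of these other cell markers in the members' differences was not tested.

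Ratios of normalized counts between members of a library, not divided by length, do not depend on how it was scaled. In ameloblasts Ambn stood at 17.6%, 13.2% and 14.0% of the Amelx count in KO1, KO3 and KO9, against 12.3% and 13.9% in WT10 and WT5. Mmp20 stayed between 2.23% and 3.48% of Amelx over the 5 ameloblast libraries. Tuft1 lay between 0.0104% and 0.0404% of Amelx there. Enam stood at 23.8%, 10.4% and 6.86% of Amelx in KO1, KO3 and KO9, against 9.51% and 13.7% in WT10 and WT5. KO1 held both the most Amelx and the most Enam for its Amelx. Stratum intermedium Ambn stood at 25.4%, 22.5% and 38.2% of Amelx in KO1, KO3 and KO9, against 18.6% and 16.6% in WT10 and WT5, without overlap between the genotypes. Tuft1 in that layer, at 0.452%, 0.253% and 1.64% of Amelx in KO1, KO3 and KO9, against 0.251% and 0.139% in WT10 and WT5, did not overlap either, with KO3 and WT10 nearly equal. Over all genes of the layer, 14.2% had a ratio to Amelx that was higher in every KO than in every WT library. These 2 ratios had an exact permutation p of 0.2 each, and with 3 against 2 libraries none of the 8 ratios examined could have reached 0.05.

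**Figure D4:**
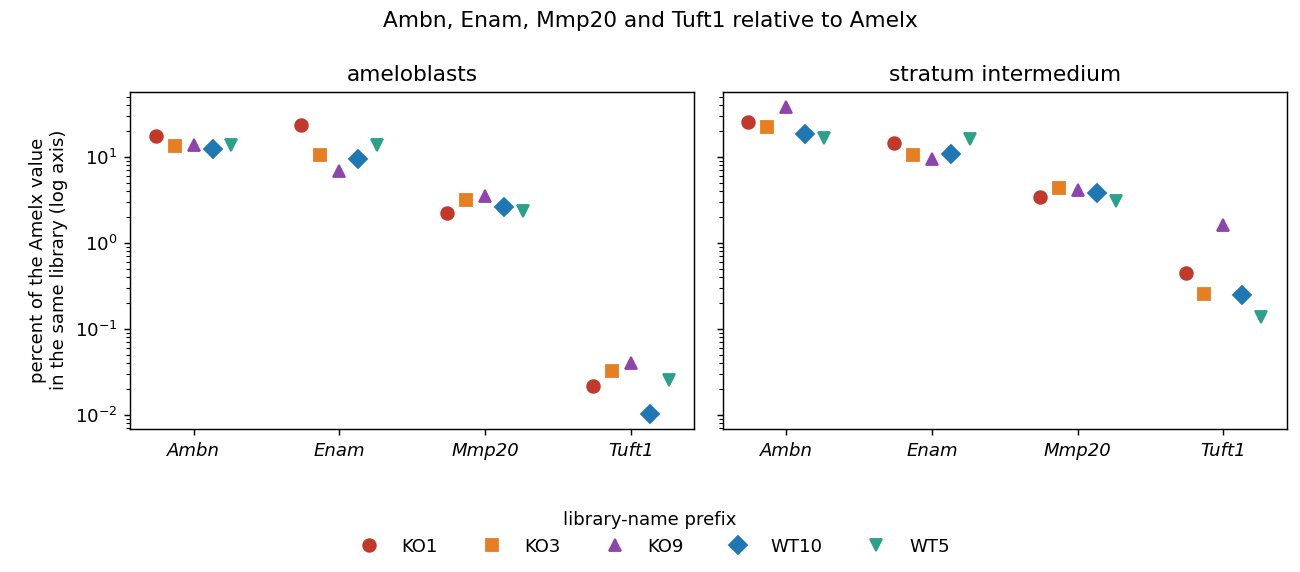
Count of Ambn, Enam, Mmp20 and Tuft1 as a percent of the Amelx count of the same library (log axis), with 1 point per prefix and 1 panel per layer. Mmp20 stays within 2.23% to 3.48% in ameloblasts while Enam spans 6.86% to 23.8%.

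The profile of Amelx over the 10 libraries was most like that of Mmp20. Likeness was measured as the root mean square difference between log2 values centred within each table, over 11307 genes with a mean of at least 100 in both tables. Mmp20 ranked first (0.22) and Ambn second (0.32) for Amelx, Enam ranked 15th (0.47) and Tuft1 4211th (0.97), where the median gene stood at 1.02. The nearest genes outside the set were Jrk (0.36), Sytl1 (0.38), Abhd18 (0.39), Dspp (0.39) and Clu (0.42). Nearest to Mmp20 were Amelx (0.22), then Dspp (0.24), which encodes dentin sialophosphoprotein and is also an odontoblast and pulp marker here, Jrk (0.28), Ndrg1 (0.32), Calb1 (0.32), which encodes the calcium-binding protein calbindin, and Klk11 (0.34). Ambn ranked 7th (0.35), Enam 431st (0.67) and Tuft1 5220th (0.89) for Mmp20, where the median gene stood at 0.90. Nearest to Tuft1 were Scn2b (0.24), Ift80 (0.26), C230062I16Rik (0.27), Snx14 (0.28) and Mr1 (0.29). The other members ranked between 6239th and 10906th for Tuft1, where the median gene stood at 0.71.

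Most other secretory-stage enamel genes had a higher mean in KO ameloblasts and a lower mean in KO stratum intermedium, and 0 of the 15 measured passed the threshold in either layer. In ameloblasts 14 of them had a higher and 1 a lower mean in KO, where 53% of all genes were higher. Their median log2 difference was 0.44, against 0.04 over all genes. For Sp6, Dlx3 and Msx2, and no other measured gene of the list, WT10 lay above and WT5 below every KO ameloblast library. The counts for this list were not repeated without WT5. In the stratum intermedium 2 of the list were higher and 13 lower, where 51.9% of all genes were higher, with a median of -0.25 against 0.02. Among those with small p-values in ameloblasts were Itgb6, an epithelial integrin subunit (0.56, SE 0.44), and Lamb3, a laminin-332 chain (0.69, SE 0.58). Stratum intermedium p-values were smallest for Itgb6 (-0.89, SE 0.31), Sp6 (-0.65, SE 0.34) and Acp4 (-0.74, SE 0.54). For the layer ratio they were smallest for Itgb6 (1.45, SE 0.51), Acp4 (1.26, SE 0.47) and Sp6 (0.96, SE 0.47). That ratio was larger in KO for 14 of 15 genes (median 0.67 against 0.01) and for 50.4% of all genes. The shares over all genes also stand beside the counts of the lists below. Across the layers, 11 of 15 were higher in ameloblasts in all 5 prefixes, with ratios of 2.57 to 14.5 for Acp4, 1.26 to 5.71 for Fam20c, the kinase that phosphorylates secreted enamel proteins, and a geometric mean ratio of 6.87 for Dspp. Dspp is also counted among the odontoblast and pulp markers, and the part of such cells in its values was not tested. Dspp, Fam20c, Klk4, Amtn and Odam each stand on several of the lists, so counts of the lists are not independent.

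Maturation-stage genes showed no common sign in ameloblasts, where 5 of 9 measured had a higher and 4 a lower mean in KO and the median log2 difference was 0.25. In the stratum intermedium 3 of 11 measured were higher and 8 lower, with a median of -0.69, and none passed the threshold in either layer. Slc4a4, a sodium bicarbonate cotransporter, had the smallest ameloblast p, with 821, 900.1 and 764 normalized counts in KO1, KO3 and KO9, against 194 and 364 in WT10 and WT5 (log2 difference 1.63, SE 0.35; limma p of 0.00218 before and 0.989 after adjustment). Lama5 (0.70, SE 0.45) and Wdr72 (-2.10, SE 1.61) came next. Smallest in the stratum intermedium were the p-values of Cftr (-0.77, SE 0.48), a chloride channel, Amtn (1.06, SE 0.74), a basal lamina protein of maturation ameloblasts, and Klk4 (-1.94, SE 1.48). Klk4 had 79.0, 52.8 and 0 normalized counts in KO1, KO3 and KO9 ameloblasts, against 11.3 and 43.7 in WT10 and WT5. Odam, which with Amtn lies near Ambn, differed by 0.41 (SE 1.29) in ameloblasts and by 0.04 (SE 0.72) in the stratum intermedium.

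Of 12 genes of matrix processing and its inhibitors, 2 had a higher and 10 a lower mean in KO ameloblasts, with a median log2 difference of -0.41, and in the stratum intermedium 5 were higher and 7 lower, with a median of -0.11. None passed the threshold. The smallest ameloblast p-values were those of Mmp9, a gelatinase abundant in osteoclasts (-1.44, SE 0.57), Adam10 (0.56, SE 0.28) and the inhibitor Timp2 (-0.51, SE 0.32), and in the stratum intermedium those of Furin (-0.45, SE 0.25), Mmp2 (0.39, SE 0.30) and Klk4. Osteoclast markers, a list that holds Mmp9, made up 0.102% to 0.452% of KO and 0.346% to 0.756% of WT ameloblast libraries, and their part in the Mmp9 value was not tested. The list of relatives of the enamel proteins, from the secretory calcium-binding phosphoprotein family with the related Sparc and Sparcl1, had 9 measured genes. Of these, 4 were higher and 5 lower in KO ameloblasts (median -0.26) and 5 higher and 4 lower in KO stratum intermedium (median 0.04), none past the threshold. Mepe, a bone and dentin member, had the smallest p in ameloblasts (-2.09, SE 0.66) and in the stratum intermedium (-2.20, SE 0.93), followed in ameloblasts by Dmp1 (0.51, SE 0.32) and Dspp (0.62, SE 0.54), and in the stratum intermedium by Amtn and Dspp (-0.90, SE 0.78). Of 5 measured genes that overlap or neighbour a member, 2 were higher and 3 lower in KO in each layer (medians -0.01 and -0.03), none past the threshold. The smallest p-values there were those of Mindy1 (-0.31, SE 0.33), Amtn (-0.31, SE 0.92) and Odam in ameloblasts, and of Mindy1 (-0.37, SE 0.21), Amtn and Snx27 (-0.27, SE 0.26) in the stratum intermedium. Arhgap6 differed by -0.01 (SE 0.82) in ameloblasts and by -0.03 (SE 0.52) in the stratum intermedium.

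For the layer ratio of these other lists, none of the genes passed the threshold. A larger ratio in KO was found for 7 of 9 maturation-stage genes (median 0.64), with the smallest p-values for Cftr (1.23, SE 0.44) and Slc4a4 (1.97, SE 0.82). For matrix processing it was larger for 4 of 12 genes (median -0.35), with Timp2 (-0.71, SE 0.27), Mmp9 (-1.29, SE 0.51) and the membrane-bound metalloproteinase gene Mmp14 (-0.44, SE 0.20) named by p. It was larger for 5 of 9 phosphoprotein relatives (median 0.11), of which Dspp (1.52, SE 0.80), Amtn (-1.37, SE 1.00) and Sparc (-0.31, SE 0.31) had the smallest p-values. Of the 5 overlapping or neighbouring genes it was larger for 4 (median 0.06), with Amtn, Snx27 (0.36, SE 0.35) and Odam (0.37, SE 1.41) named.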

How the data were processed

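RNA of laser-captured ameloblasts and stratum intermedium was sequenced as stranded polyA libraries, per the labels' protocols. The signal values were deposited as normalized counts per gene, 1 table per layer, named by the submitters as normalized with DESeq2. Their processing notes cite GRCm38, STAR 2.5.2b, featureCounts, DESeq, Picard 2.8.1 and FastQC, without settings or order. The table names cite Ensembl release 101 and say that outliers were left out, without naming them. Whole reads could not be recovered from the deposited values, so no count test and no counting intervals were made. All listed genes had at least 10 normalized counts in at least 3 libraries, so a gene could be listed through its KO libraries alone, but not through its WT libraries alone. All columns were matched to samples by library name, with 0 left unused.

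KO was compared with WT within each table by limma 3.58.1 (trend, two-sided) in R 4.3.3 on log2(normalized count + 1), over genes with a mean of at least 10, with Benjamini-Hochberg adjustment over all genes and a threshold of 0.05. The layer ratio of each prefix was compared in the same way, so that a constant factor between the tables cancels. Shares and ratios within a library were compared by exact permutation over 10 arrangements. Limma was tested on simulated data with 200 changed genes: at log2 changes of 2 and 4 it recovered 37% and 66% of them in the ameloblast simulation of 16212 genes, 49% and 60% in the stratum intermedium simulation of 16543 genes, and 11% and 59% in the layer-ratio simulation of 15567 genes. Exon lengths and positions came from the GENCODE annotation of GRCm38, and promoters, for 4 of the 5 members, from RefSeq. Other tools were Python 3.11.15, pandas 2.3.3, scipy 1.17.1, matplotlib 3.10.9 and statmod 1.5.0.

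The members, lists, markers and tests were chosen with earlier results of these data known. All members were named, with the 3 genes of smallest p in each list because none passed the threshold, 7 genes for their role (Klk4, Amtn, Odam, Acp4, Fam20c, Dspp and Arhgap6), and the 5 other genes nearest in profile. Some genes that this rule would name are not reported here. Alternatives tried were a pseudocount of 0.5 or 8, a filter at 50 or none, quantile normalization, rescaling without the 20 most abundant genes, library shares, robust variance, library weights, a block for replicate number or for library group, sex as a covariate, and leaving out each library.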

Additional observations from a re-analysis of the deposited data

How the results depend on the processing

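None of the 5 genes passed the adjusted threshold under any alternative tried. Of 255 values of their log2 differences under alternatives, 239 kept their sign and 16 did not: 12 in ameloblasts, 3 in the stratum intermedium and 1 for the layer ratio. In ameloblasts, library group as a block gave -0.32 for Amelx, -0.26 for Ambn and -0.75 for Enam, and sex as a covariate gave -0.74 for Amelx, -0.64 for Ambn, -1.47 for Enam and -0.24 for Mmp20; the cause was not tested. Leaving out each library gave ranges of -0.32 to 0.75 for Amelx, -0.26 to 0.98 for Ambn, -0.75 to 1.21 for Enam and -0.075 to 1.06 for Mmp20 in ameloblasts, of -0.92 to 0.19 for Ambn in the stratum intermedium, and of -0.050 to 1.74 for the Ambn layer ratio. The ameloblast summed share ranged from -0.674 to 2.796 percentage points. The log2 ratio of Enam to Amelx, KO minus WT, ranged from -0.43 to 0.46 in ameloblasts, where it was 0.064 with all libraries, and from -0.50 to 0.071 in the stratum intermedium. With Ambn in place of Amelx below the ratio, Enam in ameloblasts gave -0.12 and Mmp20 in the stratum intermedium gave -0.45. Genes past the adjusted threshold numbered 0 to 1 in ameloblasts and 0 to 2 for the layer ratio when 1 library or prefix was left out, with the 1 and the 2 reached without WT5. Unadjusted p under 0.05 was reached by 245 to 1490 genes in ameloblasts, 185 to 1714 in the stratum intermedium and 477 to 1867 for the layer ratio over all alternatives, with 498, 340 and 802 with no alternative applied. The calls past the adjusted threshold and the highest of these counts come from leaving out WT5, a fit whose 1 WT library takes its spread from the KO libraries.

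Replicate numbers were shared by only 2 KO and 2 WT libraries of a layer and did not follow the prefixes across layers. The numbers were not taken as pairs. Deviations of same-numbered libraries from their group means correlated across genes at 0.09 and -0.12 in ameloblasts and at -0.19 and -0.13 in the stratum intermedium. Libraries of 1 library group correlated at 0.12 and 0.27 in ameloblasts and at 0.0059 and 0.19 in the stratum intermedium. The 2 WT libraries deviate equally and oppositely from their mean, so a KO library correlates with each at the same size and opposite sign. The 0.12 of KO9 in ameloblasts and the 0.19 of KO3 in the stratum intermedium thus repeat the -0.12 and -0.19. These correlations cannot decide between the labels. With the replicate block, the stratum intermedium difference of Ambn was 0.19, and 185 genes had an unadjusted p under 0.05 there. For the layer ratio, the block gave an unadjusted limma p of 0.0418 for Amelx, 0.0362 for Ambn, 0.00207 for Enam, 0.0281 for Mmp20 and 0.681 for Tuft1, with adjusted p of 0.999. In that fit 580 of 15567 genes had an unadjusted p under 0.05. The block used the ameloblast numbers, and the KO prefixes carry other numbers in the stratum intermedium, so nothing is concluded from it. The unknown depth, and 2 WT libraries per layer, limit the precision of every difference.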
